A study of Mus musculus with 12 samples.

Results

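Mitochondrial ribosomal protein genes encode the proteins of the mitochondrial ribosome, and the 78 genes described here were taken by symbol: every gene of the deposited MII and GV tables whose symbol begins with Mrpl or Mrps and a number, pseudogenes left out. They were 78 of 23210 genes in all, 49 named for the large subunit and 29 for the small subunit. The MII table, which covers expressed genes in general, held 76 of them (48 large and 28 small). The GV table held 17, of which 15 were also in the MII table, while Mrpl52 and Mrps12 were in the GV table alone. The GV table lists only genes that differed by over 2-fold at an unadjusted p under 0.05, so a gene missing from it was simply not selected there.

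All libraries came from oocytes of C57BL/6 mice at postnatal day 35 (5 weeks), collected as 15 oocytes per tube. The CKO oocytes carried Lsm14b fl/fl with Gdf9-Cre, a recombinase transgene driven by an oocyte promoter. Lsm14b encodes an RNA-binding protein of ribonucleoprotein granules in the cytoplasm. The WT oocytes carried the same Lsm14b fl/fl alleles without Cre. Oocytes of both genotypes were taken at 2 stages, germinal vesicle (GV, in prophase arrest) and metaphase II (MII, the ovulated egg's stage), and each of the 4 groups had 3 libraries. The labels call the libraries biological replicates but do not say from how many females each pool came, so p-values measure the spread between pools.

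The mitochondrial ribosome translates the few mRNAs encoded by mitochondrial DNA, which specify core subunits of the respiratory chain. Its rRNAs are mitochondrial, whereas all of its proteins are encoded in the nucleus, made in the cytosol and imported. Many of these proteins have a counterpart in bacterial ribosomes and others are specific to mitochondria. An oocyte carries a large stock of mitochondria and of stored maternal mRNA, and makes almost no new mRNA during its final maturation.

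Recovered depth at MII was 40530314, 23077585 and 38874759 reads in CKO replicates 2, 3 and 4, against 93117615, 88494525 and 124872889 reads in WT replicates 1, 2 and 3. Every WT library was thus deeper than every CKO library. Lsm14b itself stood at 822 to 982 normalized counts in CKO and 10643 to 11641 in WT at MII, and at 1273 to 1601 in CKO and 18816 to 30132 in WT at GV. WT replicate 3 at MII stood apart from the other libraries, with rank correlations of 0.845 to 0.865 against them, while the others reached 0.889 to 0.925 among themselves. Results at MII are therefore given with and without it. Summed levels of 10 oocyte markers were 651116 to 752628 in CKO and 576108 to 697603 in WT. Those of the cumulus and granulosa markers were 3193 to 4333 in CKO and 2626 to 5212 in WT, those of the theca, stroma and endothelium markers 3957 to 4678 in CKO and 3760 to 4838 in WT, and those of 4 blood and immune markers 194 to 215 in CKO and 1118 to 1939 in WT. Of the last, C1qb stood at 113 to 195 in CKO and 1049 to 1904 in WT, and Cd68 at 20.3 to 95.0 in CKO and 7.18 to 66.1 in WT. Ptprc and Cd3e were at 0 in every CKO library and in 2 of the 3 WT libraries each. The oocyte marker Bmp15 stood at 47016 to 78335 in CKO and 113206 to 159949 in WT. Zp2 stood at 108356 to 144760 in CKO and 30386 to 82058 in WT. Zp3 had 8634 to 12675 in CKO and 3661 to 5262 in WT, and Nlrp5 157468 to 187976 and 74240 to 117316. The other oocyte markers overlapped. Tie1 stood at 158 to 297 in CKO and 446 to 703 in WT, and Kdr at 0 to 64.7 and 114 to 178. The other measured markers of theca, stroma and endothelium overlapped. Of 10 cumulus and granulosa markers measured, 4 to 5 were at 0 in CKO libraries and 3 to 5 in WT libraries. Amh and Hsd17b1 were among them in every library but WT replicate 2. Fshr stood at 90.9 to 157 in CKO and 0 to 34.2 in WT, and Inhba at 10.1 to 37.2 in CKO and 0 to 5.89 in WT. Nr5a2 stood at 2298 to 2865 in CKO and 1572 to 1834 in WT, and Cyp19a1 at 354 to 997 in CKO and 734 to 3071 in WT. Kitl overlapped between groups, and Has2 was at 0 in CKO and 0 to 32.3 in WT. The part of these cells in the results was not tested. All levels are normalized counts, which are relative to the rest of the library, so less of an mRNA per oocyte and more of the other RNA cannot be told apart.

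The 3 members that passed the test at MII were Mrpl2, Mrpl10 and Mrpl22, and their promoters are shown because they are the genes on which the MII comparison turns. Each sequence runs 5′ to 3′ from 250 bases before to 50 bases after the annotated start, on the plus strand of GRCm38.p6, from RefSeq. Mrpl2 lies at chr17:46645979-46646278, Mrpl10 at chr11:97041332-97041631 and Mrpl22 at chr11:58171414-58171713. Capitals mark matches, on either strand, to CACGTG (the E-box), GCATGCGC (NRF1), CCGGAAG (ETS factors) and ATGGCGG (YY1).
Mrpl2: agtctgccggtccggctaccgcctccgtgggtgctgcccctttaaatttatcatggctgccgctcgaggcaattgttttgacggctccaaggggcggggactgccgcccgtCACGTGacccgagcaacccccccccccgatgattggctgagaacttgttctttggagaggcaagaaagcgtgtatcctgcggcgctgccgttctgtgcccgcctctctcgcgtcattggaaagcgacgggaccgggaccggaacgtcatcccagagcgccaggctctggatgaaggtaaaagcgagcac
Mrpl10: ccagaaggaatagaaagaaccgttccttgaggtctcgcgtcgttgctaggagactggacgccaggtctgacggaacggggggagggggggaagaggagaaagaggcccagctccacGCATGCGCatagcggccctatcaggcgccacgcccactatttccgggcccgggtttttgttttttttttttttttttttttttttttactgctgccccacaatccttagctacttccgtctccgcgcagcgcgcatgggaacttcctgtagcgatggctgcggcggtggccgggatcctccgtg
Mrpl22: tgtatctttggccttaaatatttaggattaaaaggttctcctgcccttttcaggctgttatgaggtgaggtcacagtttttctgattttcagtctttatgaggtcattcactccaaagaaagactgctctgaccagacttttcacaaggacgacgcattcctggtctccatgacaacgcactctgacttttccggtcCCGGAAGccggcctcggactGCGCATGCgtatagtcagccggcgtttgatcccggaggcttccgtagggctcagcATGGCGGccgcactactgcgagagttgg
The Mrpl2 window held an E-box match alone, the Mrpl10 window an NRF1 match alone, and the Mrpl22 window an ETS, an NRF1 and a YY1 match, so no motif was in all 3. Promoters were found for 69 of the 78 members. The ETS letters were in 26 of these 69 (37.7%), against 9.93% of 27025 genes. The YY1 letters were in 13 (18.8%) against 4.69%, and the NRF1 letters in 8 (11.6%) against 3.05%. The E-box was in 5 (7.25%) against 8.09%. The 27025 genes were all those with a promoter sequence, not limited to genes measured in these oocytes. A match describes the letters only and does not show that a factor binds.

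At MII, limma on log2(normalized count + 1) called 3 of the 48 large subunit genes lower in CKO eggs and 0 higher at an adjusted p under 0.05, where 0.991% of the 20388 genes fitted were called lower and 0.52% higher. None of the 28 small subunit genes was called by limma: 5 had an unadjusted p under 0.05, as did 16% of all genes, limma-voom on recovered reads called 0, and the authors' deposited table called 3. Log2 differences were below 0 in 37 of the 48 large subunit genes, with a median of -0.61, and in 18 of the 28 small subunit genes, with a median of -0.59. Over all genes fitted the median was -0.11. Without WT replicate 3 the large subunit median was -0.54, the small subunit median -0.26 and that of all genes -0.15. The group was proposed with MII results of these data known, so its counts and medians are a description.

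Mrpl2 encodes the counterpart of bacterial L2, a core protein beside the peptidyl transferase centre. Its level was 1202, 565 and 631 normalized counts in CKO replicates 2, 3 and 4, against 13988, 13908 and 10367 in WT replicates 1, 2 and 3. The groups did not overlap, and the highest CKO library lay far below the lowest WT library. The CKO mean of 799 ± 350 was 6.27% of the WT mean of 12754 ± 2068 (SD, n = 3 each). Mrpl2 fell with a log2 difference of -4.07 (SE 0.35, limma adjusted p = 0.00265), and without WT replicate 3 with one of -4.21 (limma adjusted p = 0.0346).

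Mrpl10 encodes the protein at the base of the ribosomal stalk, on which the MRPL12 copies that meet translation factors are mounted. It had 1279, 1413 and 1132 normalized counts in CKO eggs, against 5037, 5177 and 7204 in WT eggs. The CKO libraries were close to each other and all lay below the WT libraries. Mrpl10 fell to 22.0% of the WT mean, with a log2 difference of -2.17 (SE 0.29, limma adjusted p = 0.0127), and of -2.01 without WT replicate 3 (limma adjusted p = 0.0346). By annotation 14.05% of its exon bases overlap Gm11574 on the opposite strand, and since the strand setting of the counting is not given, reads of the pair cannot be told apart there.

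Mrpl22 encodes the counterpart of bacterial L22, which lines the exit tunnel of the nascent chain. Levels were 1348, 818 and 1061 normalized counts in CKO eggs, against 3366, 3489 and 2806 in WT eggs. Again the groups did not overlap. Mrpl22 fell to 33.4% of the WT mean, with a log2 difference of -1.60 (SE 0.32, limma adjusted p = 0.0432), and of -1.70 without WT replicate 3 (limma adjusted p = 0.0446). It was the called member nearest to the threshold. Its adjusted p was 0.0518 with a pseudocount of 0.1, 0.0658 with scaling to library totals and 0.0819 with limma-voom, each above 0.05. All 3 calls also ended when any single library other than WT replicate 3 was left out, with limma adjusted p between 0.0661 and 0.163. In those fits limma called 0 of all genes, with 2441 to 3007 at an unadjusted p under 0.05. Over the 6 fits that each leave out 1 library, the log2 difference ranged from -4.40 to -3.86 for Mrpl2, from -2.27 to -2.01 for Mrpl10 and from -1.78 to -1.42 for Mrpl22.

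**Figure D1:**
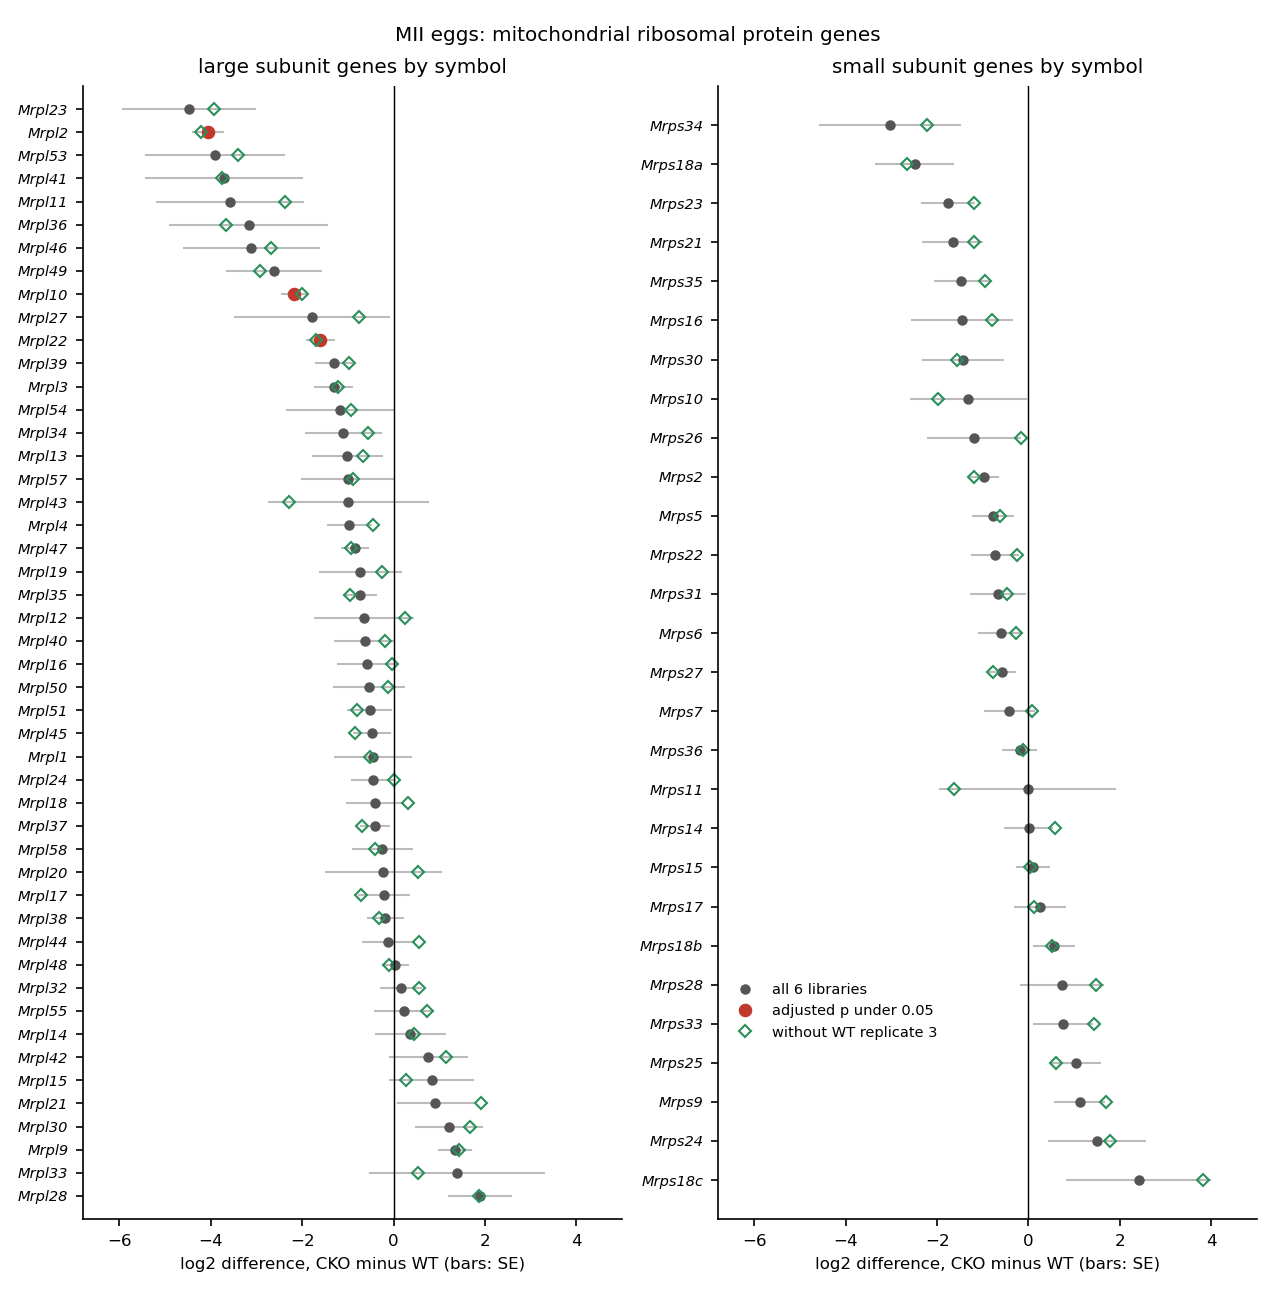
Log2 difference between CKO and WT eggs at MII (x axis, bars show the SE) for each of the 48 large and 28 small subunit genes, with all 6 libraries (dots) and without WT replicate 3 (open diamonds). Mrpl2, Mrpl10 and Mrpl22 (red) are the members past an adjusted p of 0.05, and 55 of the 76 dots lie below 0.

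Mrpl9, for a protein at the base of the L1 stalk in bacteria, was the member nearest to the threshold on the other side. It had 4956, 2370 and 5315 normalized counts in CKO eggs, against 1322, 1621 and 1811 in WT eggs. Every CKO library was above every WT library, yet the CKO libraries spread widely. Its log2 difference was 1.34 (SE 0.37) and did not pass (limma adjusted p = 0.113). Of its exon bases, 5.81% overlap Oaz3 on the opposite strand.

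Other large subunit genes of the higher levels had smaller or less even differences. With all libraries and equal weights, limma called none of them. Mrpl39, for a protein specific to mitochondria, stood at 490, 413 and 625 normalized counts in CKO eggs, against 998, 987 and 1974 in WT eggs (log2 difference -1.31, SE 0.41, limma adjusted p = 0.153). Mrpl3, for a core protein with a bacterial counterpart, had 498, 258 and 540 in CKO eggs, against 912, 1004 and 1162 in WT eggs (log2 difference -1.31, SE 0.42, limma adjusted p = 0.161). Neither gene had overlapping groups, and both passed by the adjusted p of the authors' deposited table (0.0187 for Mrpl39 and 0.0255 for Mrpl3). Mrpl32, whose protein is processed by a mitochondrial inner membrane protease, had 496, 610 and 775 in CKO eggs, against 405, 440 and 936 in WT eggs. Mrpl48, for a mitochondria-specific protein of the central protuberance, had 4291, 3593 and 3021 in CKO eggs, against 3438, 4360 and 2864 in WT eggs. In both the groups overlapped, with log2 differences of 0.16 and 0.04, and the sign of each turned under some alternatives. Of the exon bases of Mrpl48, 8.7% overlap Rab6a on the opposite strand.

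Among small subunit genes, Mrps27 had the highest level. It encodes a pentatricopeptide repeat protein and had 16601, 16131 and 11507 normalized counts in CKO eggs, against 25664, 23949 and 16440 in WT eggs. CKO replicate 2 lay just above WT replicate 3, so the groups overlapped, and the log2 difference of -0.57 (SE 0.30) did not pass (limma adjusted p = 0.376). Of its exon bases, 24.2% overlap 6430562O15Rik on the opposite strand. Mrps2, the counterpart of bacterial S2, had 1958, 1494 and 1821 in CKO eggs, against 4211, 3789 and 2516 in WT eggs. Those groups did not overlap. Its log2 difference was -0.97 (SE 0.32, limma adjusted p = 0.167) with all libraries, and -1.19 (SE 0.16, limma adjusted p = 0.0409) without WT replicate 3. Mrps2 was the small subunit gene called lower in that fit, in which 3.06% of all genes were called lower and 1.3% higher.

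Mrps9, whose bacterial counterpart reaches the peptidyl site, had 606, 542 and 826 normalized counts in CKO eggs, against 183, 216 and 668 in WT eggs. WT replicate 3 lay inside the CKO range and the other WT libraries far below it. The log2 difference was 1.12 (SE 0.56, limma adjusted p = 0.362), and 1.70 without WT replicate 3 (SE 0.27, limma adjusted p = 0.0506). When the filter was also reapplied, Mrps9 was called higher (limma adjusted p = 0.0437), as were 437 of 19902 genes. It was also called higher with array weights (limma adjusted p = 0.0140). Mrps23, for a mitochondria-specific protein, had 205, 142 and 299 in CKO eggs, against 542, 415 and 1527 in WT eggs. Here WT replicate 3 was far the highest library, and the log2 difference was -1.76 with it and -1.20 without it (limma adjusted p = 0.18 and 0.199). Mrps5 had 423, 337 and 763 in CKO eggs, against 565, 954 and 1015 in WT eggs, and Mrps6 had 449, 253 and 471 in CKO eggs, against 487, 421 and 931 in WT eggs. Both overlapped between groups, with log2 differences of -0.78 and -0.61. Of the exon bases of Mrps6, 19.9% overlap Gm49711 and 10.4% overlap Slc5a3, both on the same strand. Mrps15 had 644, 798 and 643 in CKO eggs, against 699, 650 and 593 in WT eggs, and Mrps14 had 606, 428 and 494 in CKO eggs, against 367, 313 and 1100.4 in WT eggs. Their groups overlapped too, with log2 differences of 0.10 and 0.01.

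**Figure D2:**
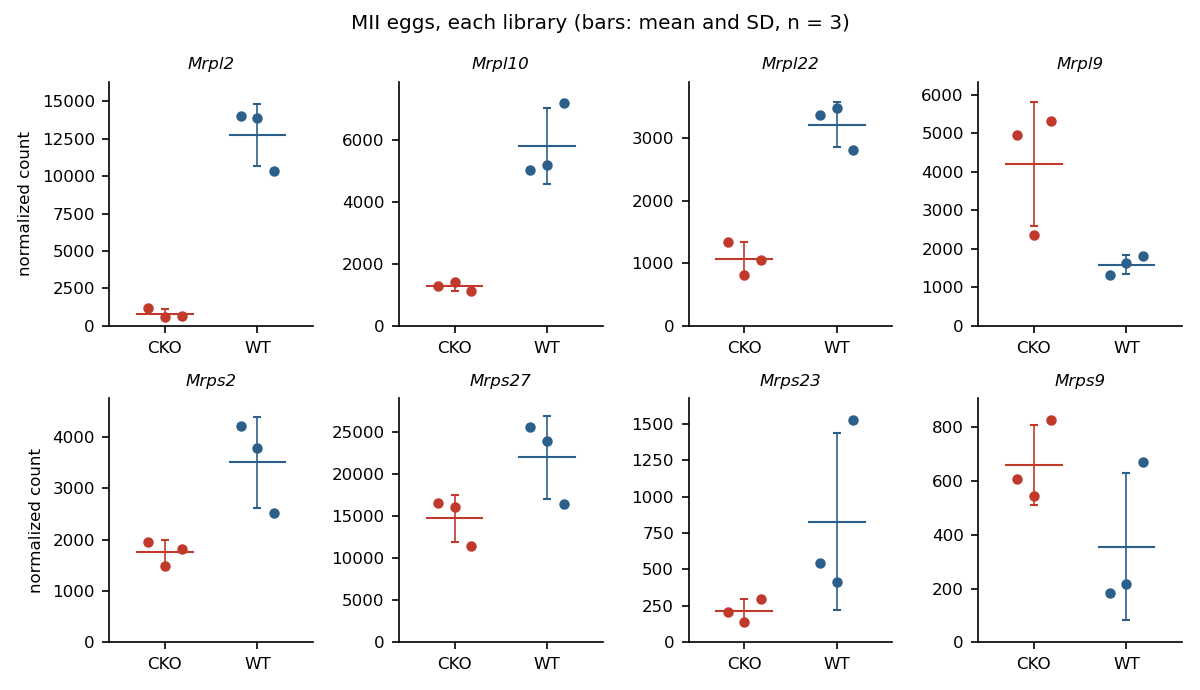
Normalized counts (y axis, from 0) in each CKO and WT library at MII for 8 genes, with the mean and SD of 3 libraries. Mrpl2, Mrpl10 and Mrpl22 have all CKO points below all WT points, Mrpl9 has them above, and 1 WT point of Mrps9 and Mrps23 lies far above the other WT points.

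The symbols of 3 members do not match where their proteins sit in mammals. Mrps18a and Mrps30 encode proteins of the large subunit, and MRPS36 is a component of the 2-oxoglutarate dehydrogenase complex. At MII, Mrps18a had 75.7, 15.2 and 31.7 normalized counts in CKO eggs, against 243, 192 and 152 in WT eggs (log2 difference -2.49, SE 0.86, limma adjusted p = 0.191). Mrps30 had 31.7, 20.3 and 84.0 in CKO eggs, against 123, 107 and 85.1 in WT eggs (log2 difference -1.43, SE 0.90, limma adjusted p = 0.468). In both every CKO library lay below every WT library, for Mrps30 by a narrow margin. Of the exon bases of Mrps30, 9.35% overlap B430218F22Rik on the opposite strand. Mrps36 had 515, 532 and 701 in CKO eggs, against 549, 723 and 717 in WT eggs, with overlapping groups and a log2 difference of -0.19.

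Counting libraries without a test, every CKO library lay below every WT library in 19 of the 76 members, 12 large and 7 small, against 12% of all genes fitted. Every CKO library lay above every WT library in 3, Mrpl9, Mrpl28 and Mrpl30, against 10.4% of all genes. Mrpl28 had 264, 160 and 176 normalized counts in CKO eggs, against 58.9, 46.7 and 51.3 in WT eggs, and did not pass (log2 difference 1.89, SE 0.70, limma adjusted p = 0.223). Without WT replicate 3 the counts were 24 below and 11 above, against 21.8% and 15.6% of all genes. By the adjusted p of the authors' deposited table, 11 members passed 0.05, 9 lower and 2 higher (Mrpl9 and Mrpl28), where 6.94% of 16042 genes were lower and 4.6% higher. The 9 lower were Mrpl2, Mrpl3, Mrpl10, Mrpl22, Mrpl39, Mrpl49, Mrps2, Mrps18a and Mrps23. Limma array weights count WT replicate 2 most (4.37) and WT replicate 3 least (0.198). With them 11 members were called lower and 4 higher, where 9.28% of all genes were lower and 6.36% higher.

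The 45 members with a bacterial counterpart had a median log2 difference of -0.45, with 29 below 0, and the 31 mitochondria-specific members one of -0.67, with 26 below 0. Without WT replicate 3 these were -0.25, with 24 below 0, and -0.77, with 26 below 0. All 3 genes called with all libraries and equal weights have a bacterial counterpart, as do 45 of the 76 members. Among the 15 conserved small subunit genes 8 lay below 0 and the median was -0.02, while among the 13 specific ones 10 lay below 0 and the median was -0.74. With array weights, 7 conserved members were called lower and 4 higher, and 4 mitochondria-specific members lower and 0 higher. In that fit 9.28% of all genes were lower and 6.36% higher. Of the members lower by the authors' adjusted p, Mrpl39, Mrpl49, Mrps18a and Mrps23 are mitochondria-specific. The difference between the classes was not tested.

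Summed over the 48 large subunit genes, normalized counts were 29209, 22865 and 28026 in CKO eggs, against 49494, 50698 and 52662 in WT eggs. The CKO mean was 52.4% of the WT mean, and Mrpl2 by itself made up 49.3% of the summed difference, Mrpl10 18.7% and Mrpl22 8.85%. Without these 3 genes the sums were 25380, 20070 and 25202 in CKO eggs, against 27103, 28123 and 32284 in WT eggs, so the CKO mean was 80.7% of the WT mean. The 28 small subunit genes summed to 25409, 23379 and 20896 in CKO eggs, against 36614, 34311 and 31894 in WT eggs (67.8% of the WT mean). Mrps27 by itself had a mean of 14746 in CKO and 22018 in WT eggs, with overlapping groups. Without Mrps27 the sums were 8807, 7249 and 9390 in CKO eggs, against 10950, 10362 and 15454 in WT eggs (69.2% of the WT mean). In each of these sums every CKO library lay below every WT library.

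Members also changed places in order of level per kb of annotated transcript. Mrps27 was the highest in CKO eggs, at a mean of 7975 normalized counts per kb in CKO and 11908 in WT. Mrpl2 stood at 775 per kb in CKO and 12371 in WT, where it was the highest. Next in WT came Mrpl22 (1490 per kb in CKO and 4461 in WT), Mrpl10 (746 in CKO and 3399 in WT) and Mrpl37 (1874 in CKO and 2565 in WT), while Mrpl9 stood at 2614 per kb in CKO and 983 in WT. The median over the 76 members was 126 per kb in CKO and 184 in WT. In CKO eggs the libraries of Mrpl2 (548 to 1166 per kb) lay below those of Mrpl9 (1470 to 3297) and Mrpl37 (1628 to 2141), and overlapped those of Mrpl22 (1133 to 1867). In WT eggs the libraries of Mrpl2 (10055 to 13567 per kb) overlapped those of Mrps27 (8891 to 13880), and those of Mrpl22 (3887 to 4832) overlapped those of Mrpl10 (2949 to 4218), so neither pair differed in order beyond its spread.

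The 26 members whose mean reached 500 normalized counts held all 3 calls. Among all 7068 genes at that level, 152 were called lower and 85 higher. These were 237 of the 308 calls over all genes. Of the 26 members, 20 lay below 0 with a median log2 difference of -0.52, against 0.01 for the 7068 genes. The 24 members with a mean under 100 had a median of -1.24, with 19 below 0 and none called by limma, although 3 had an unadjusted p under 0.05. Counts there were small: Mrpl23 had 0, 0 and 6 reads in CKO eggs, against 31, 87 and 195 in WT eggs, and Mrpl11 had 0 reads in every CKO library, against 0, 44 and 121 in WT eggs. A count of 0 allows up to 3 reads in a library. Members at 0 reads numbered 5, 8 and 7 in CKO replicates 2, 3 and 4, against 4, 2 and 4 in WT replicates 1, 2 and 3. Thinning every library to the same depth left these numbers as they were.

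WT replicate 3 was the highest of the WT libraries in 44 of the 76 members (57.9%), against 36.8% of all genes, and the highest of all 6 libraries in 39 members. Set against the mean of the WT libraries, the median log2 deviation of all members was -0.44, -0.63 and -0.34 in CKO replicates 2, 3 and 4, against -0.17, -0.15 and 0.52 in WT replicates 1, 2 and 3. For the small subunit genes it was -0.36, -0.60 and -0.30 in CKO, against -0.35, -0.40 and 0.63 in WT. Among small subunit genes the CKO libraries thus lay near WT replicates 1 and 2, and WT replicate 3 stood apart on the high side. For the large subunit genes the values were -0.54, -0.63 and -0.40 in CKO, against -0.07, -0.11 and 0.40 in WT, so that every CKO library lay below every WT library.

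**Figure D3:**
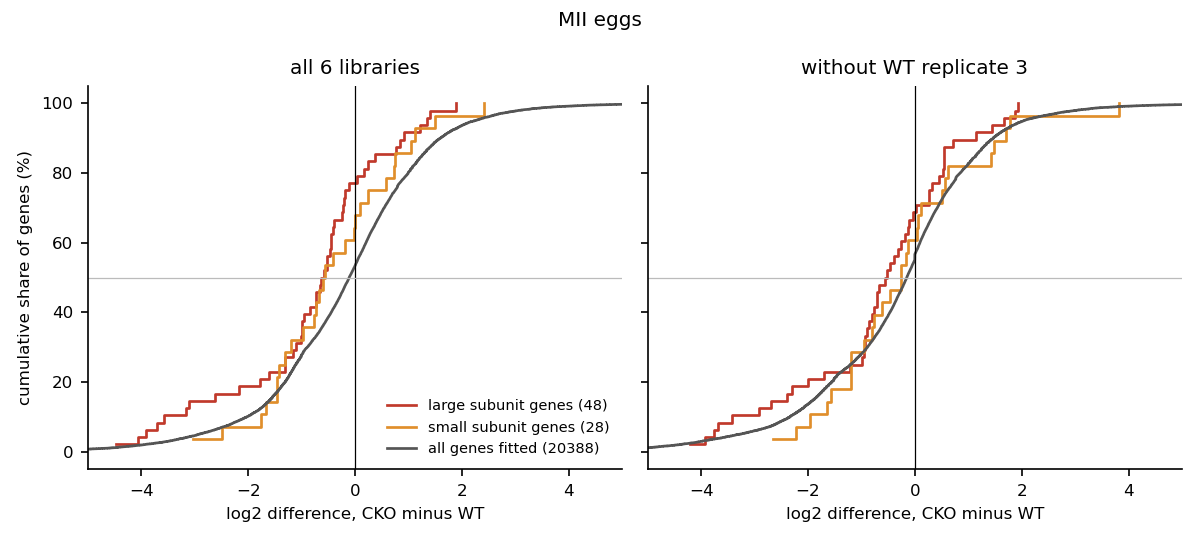
Cumulative share of genes (y axis, %) by log2 difference between CKO and WT eggs at MII (x axis), for large subunit genes, small subunit genes and all 20388 genes fitted, with all 6 libraries (left) and without WT replicate 3 (right). Both subunit curves cross the middle near -0.6 on the left, and the small subunit curve moves to -0.26 on the right while the large subunit curve stays at -0.54.

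Lengths of the members' transcripts were set beside the differences at MII. Across the 76 members, Spearman's rho of the log2 difference was 0.01 with the length of the 3′ UTR, -0.02 with the coding length and 0.03 with the transcript length. These are correlations across genes of the same libraries, which are not independent. Members have short 3′ UTRs, with a median of 328 bases against 935 in 14479 annotated genes of the MII table. The cytoplasmic polyadenylation element (TTTTAT or TTTTAAT) was in the 3′ UTR of 36 of 76 members (47.4%), against 57.5% of those genes. The Mrpl2 3′ UTR has 36 bases and the Mrpl22 3′ UTR 76, both without the element, and that of Mrpl10 has 878 bases with 3 matches.

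At GV the 17 members in the table are a description, since the table was selected on the same comparison. Of these, 15 were lower in CKO oocytes and 2 higher, Mrpl20 and Mrps30. In the authors' deposited table, 14 of the lower genes and Mrpl20 had an adjusted p under 0.05, where 7.89% of about 21462 genes would be lower and 4.96% higher by that rule. The 17 are 21.8% of the 78 members, and the whole table lists 16.2% of about 21462 genes. Mrpl52 and Mrps12 count among the 78 only because they are listed at GV, which raises the members' share. Of the 76 members in the MII table, 15 were listed at GV. Every CKO library lay below every WT library in 14 members and above in 1, where the same held for 50.4% and 33.7% of the 3475 selected genes in the table. Mrpl54 and Mrps30 had overlapping groups.

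Of the 17 members listed at GV, the stalk genes Mrpl10 and Mrpl12 and the core gene Mrpl2 had the highest mean normalized counts. Mrpl2 had 3789, 2491 and 2486 normalized counts in CKO replicates 1, 2 and 4, against 5381, 7298 and 6242 in WT replicates 1, 2 and 4. Mrpl10 had 3350, 2951 and 2658 in CKO oocytes, against 6269, 6168 and 6739 in WT oocytes. Mrpl12, the stalk protein carried by MRPL10, had 2074, 2655 and 2564 in CKO oocytes, against 4014, 6166 and 5094 in WT oocytes. All 3 stood in CKO at between 46.3% and 47.7% of the WT mean, with log2 fold changes of -1.11, -1.10 and -1.07 in the authors' deposited table. At MII, Mrpl12 had a mean of 55.0 ± 31.8 in CKO eggs and 117 ± 130 in WT eggs (SD, n = 3 each), with overlapping groups. Of the exon bases of Mrpl12, 13.05% overlap Gm16755 on the opposite strand.

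Mrps18a had closely grouped values at GV: 497, 476 and 470 normalized counts in CKO oocytes, against 1724, 1776 and 1943 in WT oocytes. Its log2 fold change in the authors' deposited table was -1.92. Mrpl46, of the central protuberance, had 916, 740 and 920 in CKO oocytes, against 1563, 2255 and 1695 in WT oocytes. Mrps11, a neighbour of Mrpl46 that shares 173 exon bases with it on the opposite strand, had 125, 429 and 322 in CKO oocytes, against 618, 730 and 694 in WT oocytes. Neither pair of groups overlapped, but reads in the shared bases cannot be assigned without the strand setting.

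Other members listed at GV had lower levels. The mitochondria-specific Mrpl41 had 107, 116 and 60.1 normalized counts in CKO oocytes, against 374, 512 and 433 in WT oocytes (log2 fold change -2.21 in the authors' deposited table). Mrps10, with a bacterial counterpart, had 11.1, 24.8 and 22.9 in CKO oocytes, against 98.5, 191 and 214 in WT oocytes (-3.10 in the authors' deposited table). Mrpl52 had 1.71, 0 and 16.2 in CKO oocytes, against 87.2, 116 and 77.0 in WT oocytes (-3.98 in the authors' deposited table). In each of these 3 genes every CKO library lay below every WT library. Mrps12, the counterpart of the decoding protein S12, had 142, 311 and 262 in CKO oocytes, against 575, 527 and 651 in WT oocytes. The mitochondria-specific Mrps26 had 214, 122 and 199 in CKO oocytes, against 513, 595 and 581 in WT oocytes. Both genes had well separated groups. Mrpl36, with a bacterial counterpart, had 231, 125 and 209 in CKO oocytes, against 452, 588 and 641 in WT oocytes. The mitochondria-specific Mrpl49 had 132, 111 and 228 in CKO oocytes, against 442, 408 and 529 in WT oocytes, and Mrpl57, also specific, had 211, 246 and 253 in CKO oocytes, against 319, 748 and 479 in WT oocytes. None of these 3 overlapped, and the gap was narrowest in Mrpl57. Mrpl54 had 258, 189 and 332 in CKO oocytes, against 277, 773 and 517 in WT oocytes, where the highest CKO library lay above the lowest WT library. At -1.01 in the authors' deposited table it lay nearest to the 2-fold limit of selection, and genes outside that limit are not listed.

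Mrpl20, whose bacterial counterpart binds rRNA early in assembly, was higher in CKO oocytes at GV, with 644, 506 and 525 normalized counts, against 129, 165 and 103 in WT oocytes. The groups did not overlap, and the log2 fold change in the authors' deposited table was 2.08. Mrps30 had 82.8, 353 and 703 in CKO oocytes, against 72.4, 91.4 and 165 in WT oocytes. Its CKO libraries differed widely and overlapped the WT range, and the log2 fold change in the authors' deposited table was 1.79 with an adjusted p of 0.0587.

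**Figure D4:**
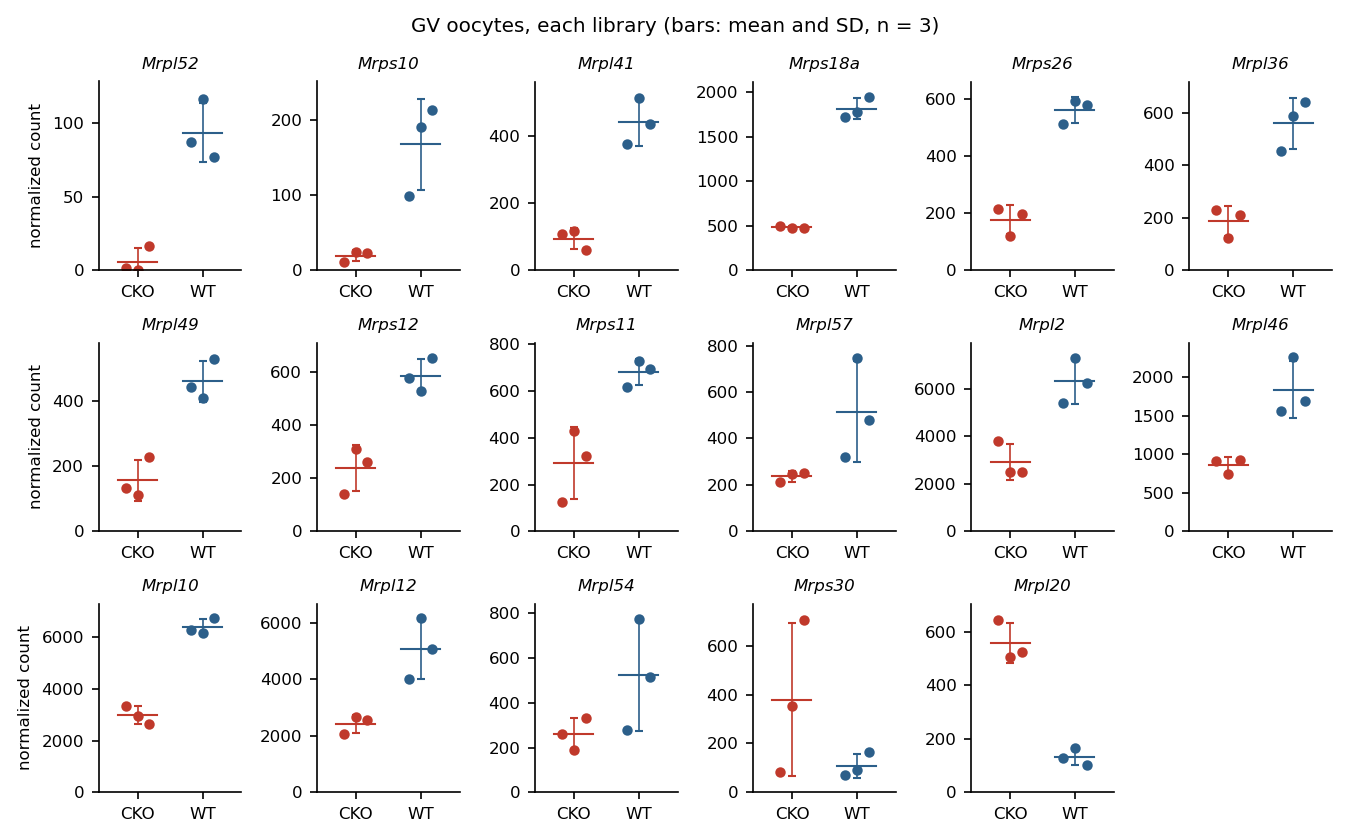
Normalized counts (y axis, from 0) in each CKO and WT library at GV for the 17 members listed there, ordered by the authors' log2 fold change, with the mean and SD of 3 libraries. The CKO points lie below the WT points in 14 genes and above them in Mrpl20, and the groups overlap in Mrpl54 and Mrps30.

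The 15 members in both tables could be followed across the stages, within each table, since the tables were normalized separately. All 15 had a log2 difference below 0 at MII, with a median of -1.43, and 13 of the 15 did without WT replicate 3, where Mrpl12 (0.26) and Mrpl20 (0.54) lay above 0. The 61 members not listed at GV had a median of -0.45 at MII, with 40 below 0. Most of the 15 had an MII mean under 100, and the members under that level had a median of -1.24. Mrps10 had 24 reads in WT replicate 2 and 0 reads in every other MII library. Mrps11, at -0.02, had a mean of 23.4 in CKO eggs and 18.6 in WT eggs. The part of level in this contrast was not tested. Mrpl2 stood in CKO at 46.3% of the WT mean at GV and at 6.27% at MII, and Mrpl10 at 46.7% at GV and 22.0% at MII. Mrpl20 and Mrps30, higher in CKO at GV, had MII log2 differences of -0.22 and -1.43, and of 0.54 and -1.57 without WT replicate 3, so the direction of Mrpl20 turned. Mrpl20 had 101, 12.7 and 45.5 normalized counts in CKO eggs at MII, against 9.43, 71.8 and 134 in WT eggs, with overlapping groups. Whether the genotype difference changed between the stages was not tested.

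**Figure D5:**
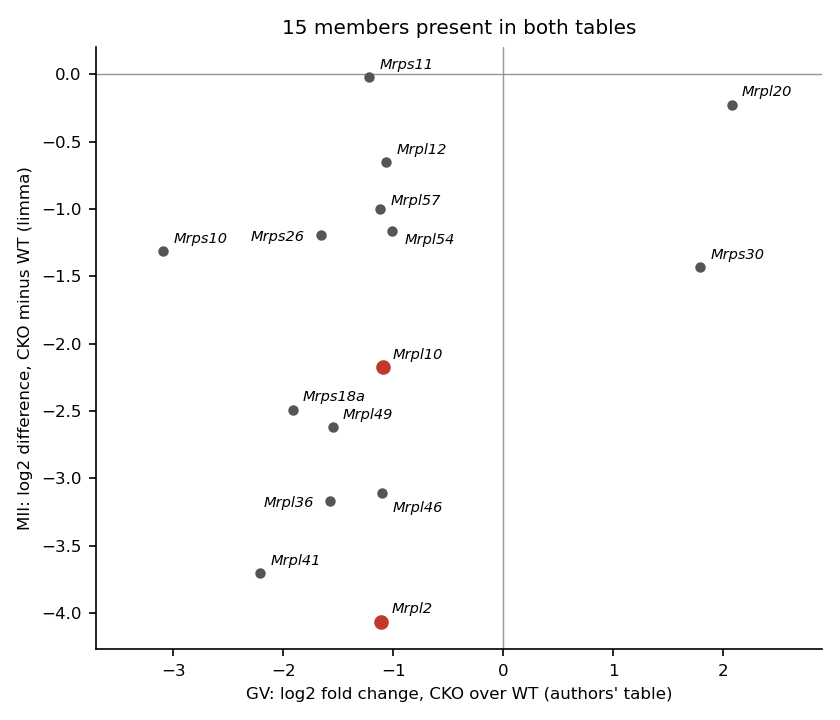
Log2 fold change between CKO and WT oocytes at GV from the authors' deposited table (x axis) and log2 difference between CKO and WT eggs at MII from limma (y axis) for the 15 members in both tables. All 15 points lie below 0 on the y axis, those of Mrpl20 and Mrps30 to the right of 0, and red marks Mrpl2 and Mrpl10, the genes of this set past an adjusted p of 0.05 at MII.

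Other genes of mitochondrial translation were taken from 5 lists with 77 genes, of which 72 were fitted at MII. limma called 2 of the 72 lower and 0 higher in CKO eggs, where 0.991% of all genes were lower and 0.52% higher. The log2 difference lay below 0 in 43 of them, with a median of -0.29 against -0.11 over all genes. Of the 5 further ribosomal subunits with other names, Gadd45gip1 was called lower, and it encodes a large subunit protein near the tunnel exit. It had 6163, 5841 and 4096 normalized counts in CKO eggs, against 13216, 14085 and 21212 in WT eggs. The groups did not overlap (log2 difference -1.58, SE 0.31, limma adjusted p = 0.038), and the adjusted p was 0.0525 without WT replicate 3. Dap3, for a small subunit GTP-binding protein, had means of 4109 ± 587 in CKO and 4085 ± 835 in WT eggs (SD, n = 3 each).

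Of 27 fitted genes for ribosome assembly and rRNA modification, Gtpbp10 was called lower, and it encodes a GTPase of large subunit assembly. It had 35.8, 50.6 and 67.5 normalized counts in CKO eggs, against 330, 485 and 1028 in WT eggs. The groups were far apart (log2 difference -3.44, SE 0.67, limma adjusted p = 0.0381), and the adjusted p was 0.0504 without WT replicate 3. Tfb1m, which methylates the small subunit rRNA, had 1275, 1337 and 1317 in CKO eggs, against 3000, 2894 and 2106 in WT eggs, and passed without WT replicate 3 (limma adjusted p = 0.0346) but not with it (0.134). The lists of translation factors (15 fitted), mitochondrial aminoacyl-tRNA synthetases (16 fitted) and mitochondrial DNA maintenance and transcription (9 fitted) had 0 genes called by limma. At an unadjusted p under 0.05 they held 1, 3 and 3 genes, where 16% of all genes passed that limit. At GV the authors' deposited table held 12 of the 77 genes of the 5 lists (15.6%, against 16.2% of all genes), 8 lower and 4 higher in CKO oocytes, among them Gtpbp10 with a mean of 237 in CKO and 1368 in WT oocytes.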

How the data were processed

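The 12 libraries, each of 15 pooled mouse oocytes, were CKO and WT at MII and at GV (3 each). Aligner, genome build, annotation, counting tool and strand setting were not given in the sources used here. For each gene and library the authors deposited the log10 of the normalized count + 1. Further deposited columns, per the file headers, were the mean signal over 6 libraries, the log2 fold change of CKO over WT and its error, a score and a p-value, raw and adjusted.

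Levels were taken as 10 to the power of the value, minus 1. Divided by a step fixed within each library, 100% of levels came within 0.05 of a whole number, which gave the reads and the depth at MII. At GV the table holds selected genes, so the depth is unknown and no test was fitted. The MII test was limma-trend (limma 3.58.1, R 4.3.3) on log2(normalized count + 1), fitted over all 20388 genes whose mean reached 1, with Benjamini-Hochberg adjustment over these genes. Differences on this log2 scale can be understated or overstated for low genes, most of all where a library is at 0. Mrpl11 was at -3.58 here and at -6.57 in the authors' deposited table, and Mrpl41 at -3.70 here and at -1.38 there. The procedure was tested on simulated data. Transcript lengths and exon overlaps came from GENCODE M21 by symbol, and promoters from RefSeq. Other members also share exon bases with neighbouring genes, and those overlaps are not printed.

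Values for each library were printed for every member called at MII or listed at GV, for up to 5 members per subunit and direction with the largest log2 difference at a mean of at least 500, for the members nearest to the threshold, and for Mrps18a, Mrps30 and Mrps36. Mrpl28, Mrpl23, Mrpl11, Dap3 and Tfb1m were added after their values were seen. The members and all lists were chosen with earlier results of these data known. Alternatives were a pseudocount of 0.1, no filter, scaling to library totals, array weights, limma-voom on recovered reads, a replicate block, a 2-fold minimum, the authors' adjusted p-value and leaving out each library. Thinning to equal depth, and reapplying the filter without WT replicate 3, were added after the data were seen.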

Additional observations from a re-analysis of the deposited data

How the results depend on the processing

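Of the large subunit genes, 3 were called at MII with all libraries and equal weights. This number was 11 with array weights, 8 by the authors' adjusted p and 0 with a replicate block. It was 0 to 3 when each library was left out, 3 of these only without WT replicate 3. The array weights were 4.37 for WT replicate 2 and 0.198 for WT replicate 3, and 0.902 to 1.18 for the other libraries. Of the small subunit genes 0 were called, against 4 with array weights and 3 by the authors' adjusted p. Without WT replicate 3 and with the filter reapplied 2 were called, Mrps2 lower and Mrps9 higher. When each library was left out 0 to 1 were called. The partner genes called, 2 with all libraries, numbered 1 with a pseudocount of 0.1 or with no filter. They numbered 14 with array weights, and 8 without WT replicate 3 and with the filter reapplied. They were 0 with limma-voom, a replicate block or thinning, and 0 to 1 when each library was left out. Over all 20388 genes, limma called 308 with all libraries, 3190 with array weights and 0 with a replicate block. Without WT replicate 3 and with the filter reapplied it called 988 of 19902. By the authors' adjusted p, 6.94% of 16042 genes were lower and 4.6% higher.

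At MII, replicate numbers are shared by CKO and WT libraries only for 2 and 3, whose deviations correlated at 0.0133 and -0.101. The crossed pairs gave -0.0214 and 0.0505. With so few libraries these values cannot show whether the numbers pair libraries, and the main fit treated the libraries as unpaired. With the replicate block the medians were -0.95 for the large subunit genes and -0.93 for the mitochondria-specific genes. Leaving out each library gave medians of -0.77 to -0.51 for large, -0.73 to -0.26 for small, -0.74 to -0.25 for conserved and -0.90 to -0.55 for specific genes. Of the 30 named members fitted at MII, 7 turned sign under at least 1 alternative. Mrpl32 was at -0.22 with the block, and leaving out each library gave -0.058 (WT replicate 1) to 0.55, with -0.0019 without CKO replicate 4. Mrpl48 was at -0.17 with array weights, and at -0.11 (WT replicate 3, with or without the filter reapplied) to 0.20 with a library left out, including -0.088 without CKO replicate 2. Mrps15 was at -0.0042 (CKO replicate 3) to 0.16 with a library left out. Mrps14 was at -0.21 with the block and at -0.33 (WT replicate 2) to 0.57 with a library left out, including -0.13 without CKO replicate 2 and -0.22 without WT replicate 1. Among those listed at GV, Mrpl12 (-0.65 with all libraries) was at 0.26 without WT replicate 3 and 0.43 with array weights, Mrpl20 (-0.22) at 0.54 without WT replicate 3, 0.55 without CKO replicate 3 and 0.09 without WT replicate 2, and Mrps11 (-0.02) between 0.12 and 1.58 under 5 alternatives. The cause of these changes was not tested. Members with a mean under 100 rest on few reads.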
